A study of Mus musculus with 71 samples.

Results

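The nuclear genes for subunits of the oxidative phosphorylation machinery were described in RNA sequencing of mouse brain after a skin burn, a skin excision or a sham procedure. Members were chosen by symbol: Ndufa, Ndufb, Ndufc, Ndufs or Ndufv followed by a digit, and symbols starting with Uqcr, with Cox and a digit from 4 to 8, or with Atp5. Of 55416 gene identifiers in the count table, 85 matched, and 8 more were left out because their symbols carry the pseudogene ending -ps. By complex, 35 members belong to complex I, 8 to complex III, 20 to complex IV and 18 to complex V. The remaining 4, Ndufs6b, Cox6c2, Ndufb4c and Ndufa11b, are annotated as processed pseudogenes and are given separately. Ndufa4, named for complex I, and its relative Ndufa4l2 were placed with complex IV. Atp5o has 2 identifiers, and the second of them (ENSMUSG00000116933) is at 0 in all 71 libraries, so 84 symbols stand for the 85 members.

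Oxidative phosphorylation makes most of the ATP that neurons use for ion pumping and synaptic transmission. Complex I (NADH dehydrogenase) takes electrons from NADH, complex III (cytochrome bc1) passes them to cytochrome c, and complex IV (cytochrome c oxidase) hands them to oxygen, while protons are moved across the inner mitochondrial membrane. Complex V, the ATP synthase, lets the protons return and makes ATP. Most subunits are encoded in the nucleus, a smaller set is encoded by mitochondrial DNA, and complex IV has pairs of isoforms that differ between tissues and cell types. The nuclear genes are known targets of the factors NRF1, NRF2 (GABP, of the ETS family) and YY1 and of the coactivator PGC-1.

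All animals were C57BL/6J mice that were anaesthetised with isoflurane and given buprenorphine at 0.1 mg/kg, with paracetamol at 1 mg/mL in the drinking water for 5 days. The burn, on the right dorsal flank, reached the full thickness of the skin on 7 to 8% of the body's surface and was made with a brass rod (19 mm, 10 s, over 90 °C). Excision removed skin on the back along a 12 mm template, and sham mice were shaved and not injured, so that injury type and body site change together. Batches 1 and 2 held hippocampus (burn n = 10, excision n = 10, sham n = 9) and frontal cortex (burn n = 10, excision n = 10, sham n = 8), and batch 3 held piriform cortex (burn n = 5, excision n = 4, sham n = 5). The labels do not say what a batch is, how old the mice were, when tissue was taken or whether regions came from the same mice. Nothing says which libraries of a group are separate animals, so p-values measure the spread between libraries. The tissue is a mixture of cells, in which fewer cells of a type and less RNA per cell cannot be told apart.

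Libraries held between 6.65 and 87.8 M (mega) counts, with the 4 libraries under 10 M in batch 1 of the hippocampus. Titles of 4 libraries name another treatment than the treatment field (frontal cortex burn replicates 7 and 8 and excision replicate 7, piriform cortex sham replicate 2), and the field was used. For the piriform cortex, whose titles say frontal cortex, the tissue field was followed. The summed level of 8 hippocampal markers was 566 to 953 CPM (counts per 1 M counts) in the hippocampus and 328 to 478 CPM in the frontal cortex, without overlap. In the piriform cortex it was 802 CPM in sham replicate 1, within the range of the hippocampus, and 239 to 455 CPM in the other 13 libraries. That library also had the highest mean log2 CPM of its region in markers of oligodendrocytes (8.40, others 6.80 to 7.93) and blood (7.38, others 4.61 to 6.46) and in the members (6.79, others 6.27 to 6.75). The mean log2 CPM of neocortex markers was 5.34 to 6.28 in the piriform cortex (median 5.91). In the frontal cortex it was 5.13 to 6.01 in batch 1 (median 5.51) and 3.92 to 5.60 in batch 2 (median 5.29). Neocortex markers were thus not lower in the piriform libraries. No markers of piriform cortex were examined, so the tissue field was not tested against the titles. Frontal cortex sham replicate 1 (batch 1) and burn replicate 6 (batch 2) stood apart from their groups in the members' mean level. The medians and calls that rest on these 3 libraries are given below also without them, where that was run.

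Members took 1.00% of a library's counts at the median and between 0.774 and 1.50%. Complex V held the largest share (median 0.376%), ahead of complex I (0.281%), complex IV (0.234%) and complex III (0.0997%). Of the 85 members, 80 had counts in every library. Levels between genes are compared here as CPM per kb of merged exons, averaged over all 71 libraries. In complex IV, Cox8a, a small subunit of the membrane part, was at 566 CPM per kb, Cox6a1 at 436 and Cox4i1, the largest nuclear subunit of that complex, at 263. The low end of complex IV was held by Ndufa4l2 at 1.47 CPM per kb, Cox7b2 at 0.438 and Cox8c at 0.00374, whose highest count in any library was 4. In complex V, the catalytic subunits Atp5b (beta) at 274 and Atp5a1 (alpha) at 250 CPM per kb stood above Atp5d at 125, while Atp5l at 12.5 and Atp5s at 6.66 were the lowest beside the empty Atp5o identifier. In complex III, Uqcr11 was at 183, Uqcr10 at 158 and Uqcrh at 118 CPM per kb, and the core proteins Uqcrc1 at 64.4 and Uqcrc2 at 49.5 were at the low end, with Uqcrb at 63.8. In complex I, Ndufa13 was at 117, Ndufa8 at 111 and Ndufa2 at 107 CPM per kb, and Ndufb5 at 14.9, Ndufs1 at 13.2 and Ndufb2 at 3.35 were the lowest. The length chosen sets some of these places: per kb of its longest transcript, Ndufs1, the largest subunit of complex I, was at 40.2. Per kb, subunits of complexes I, IV and V thus spanned more than an order of magnitude, and those of complex III did not.

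**Figure D1:**
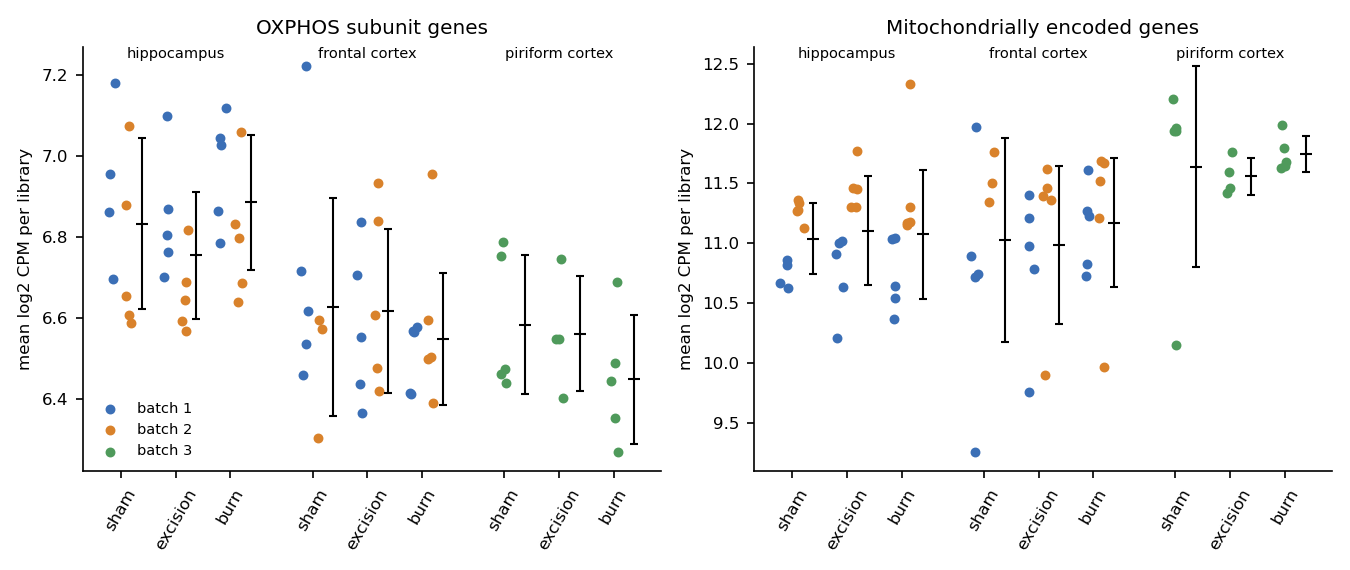
Left, mean log2 CPM of the members in each library by region and treatment, coloured by batch, and right, the same for the mitochondrially encoded genes. Points are libraries and bars give the mean and SD of each group. Frontal cortex sham replicate 1 lies at 7.22 on the left, above the other sham libraries of its region.

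Because short reads from near-identical copies can be assigned to either copy, the members' transcripts were searched for 100-base windows that occur unchanged in a transcript of another gene. A shared window was found in 33 of 85 members. The share of windows was 34.8% in Cox6c2, 34.7% in Atp5g2, 27.9% in Atp5o, 24.0% in Ndufa13 (shared with the overlapping gene Tssk6) and 24.0% in Ndufb6 (with Smim27). The coding sequence of Ndufb4, an accessory subunit of complex I (chr16:37647170-37654453, minus strand, GRCm38), and its processed copy Ndufb4c (chr15:73809507-73809896, minus strand) were identical at 387 of 387 bases. Ndufs6 (chr13:73319838-73328542, minus strand) and Ndufs6b (chr7:81161397-81161744, minus strand) matched at 335 of 347 bases (96.5%). Ndufa11 (chr17:56717767-56722141, plus strand) and Ndufa11b (chr16:22053510-22053933, plus strand) matched at 401 of 423 bases (94.8%). A stretch of 60 coding bases of each pair is printed from the reference transcripts, chosen as the 60 with the most differences. Other stretches of these pairs differ as much or less. Capitals mark bases that differ between gene and copy.
Ndufb4, coding bases 1 to 60: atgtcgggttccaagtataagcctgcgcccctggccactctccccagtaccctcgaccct
Ndufb4c: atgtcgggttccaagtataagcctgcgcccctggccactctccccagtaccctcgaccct
Ndufs6, coding bases 2 to 61: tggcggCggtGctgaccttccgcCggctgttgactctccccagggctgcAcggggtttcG
Ndufs6b: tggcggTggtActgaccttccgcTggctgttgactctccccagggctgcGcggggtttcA
Ndufa11, coding bases 277 to 336: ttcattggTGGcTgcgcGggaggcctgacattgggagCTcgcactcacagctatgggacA
Ndufa11b: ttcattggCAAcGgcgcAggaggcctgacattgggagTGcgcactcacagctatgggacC

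The reads assigned to each copy went with these differences. Ndufb4 and its identical copy were given like numbers of reads, 71.5 and 66.4 CPM in the hippocampus, 63.6 and 59.2 CPM in the frontal cortex and 58.4 and 53.4 CPM in the piriform cortex. Ndufs6 was at 55.2, 46.7 and 45.7 CPM in the same order of regions. Its copy Ndufs6b, with 12 differences in the 347 bases compared, was at 0.218, 0.074 and 0.0824 CPM. Ndufa11 was at 58.2, 43.4 and 38.3 CPM, and Ndufa11b, with 22 differences in 423 bases, at 0.255, 0.0167 and 0.0333 CPM. The count given to Ndufb4c can therefore not be told apart from that of Ndufb4, and how reads with several places were counted is not given in the sources used here. The retrocopy Cox6c2 was at 234 CPM per kb in the hippocampus, above its parent Cox6c at 57.1, and at 41.0 and 43.0 in the frontal and piriform cortex, where Cox6c was at 43.5 and 47.3. Merged exons span 231 bases in Cox6c2 and 3567 in Cox6c, and the order per kb rests on this length. In counts Cox6c2 was below its parent, with means of 1051.8 and 8669.2 over all libraries.

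Promoters of 63 of the 84 symbols were found in the RefSeq table (GRCm38.p6), as 250 bases before and 50 bases after the annotated start. Motif letters were searched on both strands, and motifs may overlap each other. The NRF1-like motif was in 15 of 63 member promoters (23.8%) and in 5.19% of 27025 promoters of all genes. It was in 7 of 31 promoters of complex I, 1 of 5 of complex III, 1 of 14 of complex IV and 6 of 13 of complex V. The ETS motif CCGGAAG was in 22.2% of member promoters (9.93% of all), and the YY1-like motif AAGATGGC in 14.3% (3.19% of all), with 7 of its 9 member promoters in complex I and 2 in complex V. At least 1 of these 3 motifs was in 33 of 63 member promoters (52.4%, against 16.4% of all promoters). The E-box CACGTG was in 7.9% of members and 8.09% of all, and TATAAA in 11.1% and 15.67%. A match describes the letters only. Windows of 60 bases around the NRF1-like match are printed for up to 2 members of each complex with the highest CPM among those whose match lies before the start and whose window lies outside annotated exons, with the motif in capitals, each on the strand of its gene. The windows of Atp5c1, Ndufa8 and Atp5g2, for example, overlap annotated exons and are not shown.
Ndufs5, chr4:123718250-123718309, minus strand, motif 98 to 89 bases before the start: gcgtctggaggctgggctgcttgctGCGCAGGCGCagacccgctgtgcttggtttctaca
Ndufb4, chr16:37654525-37654584, minus strand, 191 to 182 bases before: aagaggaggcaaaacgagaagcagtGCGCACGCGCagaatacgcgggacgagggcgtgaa
Cox6a1, chr5:115349041-115349100, minus strand, 117 to 108 bases before: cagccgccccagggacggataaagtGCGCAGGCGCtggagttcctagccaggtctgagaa
Atp5h, chr11:115420026-115420085, minus strand, 141 to 132 bases before: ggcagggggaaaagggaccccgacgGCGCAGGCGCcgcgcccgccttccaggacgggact

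In the hippocampus, burn was compared with sham and with excision to ask whether the energy genes move after an injury far from the brain. Genes were called at an adjusted p under 0.05 by the quasi-likelihood test of edgeR with Benjamini-Hochberg adjustment over all genes tested, and log2 fold changes are between group levels with batch in the model. No member was called: 0 of 81 tested in burn against sham, where 1.03% of all genes were called, 0 of 81 in excision against sham (0% of all genes) and 0 of 81 in burn against excision (0.209%). Unadjusted p under 0.05 was met by 4, 1 and 17 of 81 members in these comparisons, and by 3470, 727 and 2790 of all 19574 genes tested. Uqcrc2, a core protein of complex III (GRCm38 chromosome 7, 120635176 to 120659524), ran from 117 to 169 CPM in burn (median 140), from 113 to 146 CPM in excision (median 127) and from 112 to 137 CPM in sham (median 125). The groups overlapped, but the burn median lay above every sham library. Its log2 fold change was 0.17 (SE 0.06, adjusted p = 0.126) for burn against sham and 0.15 (SE 0.06, adjusted p = 0.209) for burn against excision by edgeR. In batch 1 alone it was called in both comparisons, at 0.34 (adjusted p = 0.0163) and 0.30 (adjusted p = 0.0485). It was the only one of 81 members called there, where 7.09% and 1.05% of all genes were called. The difference of the burn effects between batches was called for 0 of 81 members against sham (0.046% of all genes) and 0 of 81 against excision (0.0307%). For Uqcrc2 the burn against sham effect in batch 2 minus batch 1 was -0.36 (SE 0.09, adjusted p = 0.0912). It was called at -0.41 (adjusted p = 0.0148) without hippocampus sham replicate 1 and at -0.38 (adjusted p = 0.0343) without sham replicate 7.

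Atp5a1, the alpha subunit of the ATP synthase, was at 738 to 999 CPM in burn (median 861), 730 to 950 in excision (median 780) and 728 to 894 in sham (median 784) in the hippocampus. Excision and sham medians were alike and burn was higher, with wide overlap. Its log2 fold change was 0.12 (SE 0.04, adjusted p = 0.151) in burn against excision and 0.10 (SE 0.04, adjusted p = 0.21) in burn against sham by edgeR. With the Wald test of DESeq2 it was the only member called in burn against excision (adjusted p = 0.0276), where 1.55% of all genes were called. Uqcrfs1, the Rieske iron-sulfur protein of complex III, differed by 0.13 on the log2 scale in burn against sham (SE 0.05, adjusted p = 0.155), Ndufs1 by 0.12 (SE 0.06, adjusted p = 0.262), Cox5a by 0.15 (SE 0.07, adjusted p = 0.306) and Atp5b by 0.05. Ndufv1, which binds NADH, was at -0.03, Uqcrc1 at 0.01 and Cox4i1 at 0.01. In excision against sham the members of smallest p were Ndufv1 at -0.14, Cox7a1 at -0.35, Ndufa10 at -0.11, Uqcr10 at -0.17 and Ndufb4 at -0.14, each with adjusted p = 0.852.

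The small differences lay mostly to 1 side. The median log2 fold change over the members was 0.122 in burn against excision (0.009 over all genes), and 79 of 81 members were higher after burn. It was -0.110 in excision against sham (-0.004 over all genes), where 6 of 81 were higher, and 0.016 in burn against sham (0.012 over all genes), where 53 of 81 were higher. In burn against excision the medians were 0.119 in complex I, 0.136 in III, 0.126 in IV and 0.117 in V, so that the complexes did not separate. The first and the second of these comparisons share the excision libraries, and members of a library rise and fall together, as shown further on. Within batches the burn against excision median was 0.093 in batch 1 and 0.148 in batch 2. Among the other lists of mitochondrial genes, Idh2, an isocitrate dehydrogenase of the matrix, was called in burn against excision (log2 fold change 0.30, SE 0.06, adjusted p = 0.0371), 1 of 17 citrate cycle genes. No other gene of the lists of assembly factors, remaining structural genes, mitochondrially encoded genes, regulators, cytosolic ribosomal proteins or mitochondrial ribosomal proteins was called in any of the 9 treatment comparisons.

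In the frontal cortex 0 of 80 members were called in burn against sham (0.28% of all genes were called), excision against sham (0%) or burn against excision (0.209%). An unadjusted p under 0.05 was met by 2, 0 and 2 of 80 members, and by 2741, 1007 and 2442 of all 21077 genes tested. Ndufb2, an accessory subunit of complex I (chromosome 6, 39592574 to 39603382), ran from 11.4 to 18.3 CPM in burn (median 13.2), 12.3 to 18.9 in excision (median 14.3) and 13.1 to 17.6 in sham (median 14.9). Its range in sham lay within that of burn. Its log2 fold change was -0.20 in burn against sham (SE 0.09, adjusted p = 0.324). Uqcrc2 was at 123 to 162 CPM in burn (median 146), 113 to 145 in excision (median 123) and 116 to 153 in sham (median 127), with log2 fold changes of 0.12 (SE 0.07, adjusted p = 0.462) against sham and 0.16 (SE 0.06, adjusted p = 0.308) against excision. Burn libraries again reached the highest values of this gene, as in the hippocampus, without passing the test in either region. The piriform cortex did not share this. There the log2 fold changes of Uqcrc2 in burn were 0.005 against sham (SE 0.07, adjusted p = 0.992) and -0.083 against excision (SE 0.08, adjusted p = 0.772). Ndufs1 was at 0.14 in burn against excision (SE 0.06, adjusted p = 0.319). Cox6b2 at -0.36 (SE 0.17, adjusted p = 0.376), Atp5e at -0.28 (SE 0.15, adjusted p = 0.45) and Cox7b2 at 0.65 (SE 0.36, adjusted p = 0.458) followed in burn against sham. The core subunits Ndufv1, Uqcrc1, Uqcrfs1, Cox4i1, Cox5a, Atp5a1 and Atp5b lay between -0.213 (Cox4i1) and 0.015 (Atp5a1) there.

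The members' median in the frontal cortex was -0.123 in burn against sham (-0.016 over all genes, 13 of 80 members higher), -0.032 in excision against sham (15 of 80 higher) and -0.083 in burn against excision (15 of 80 higher). Its sign in the comparisons with sham depended on the batch. Burn against sham gave -0.274 in batch 1 alone and 0.140 in batch 2 alone, and excision against sham gave -0.159 and 0.197. Sham replicate 1 is in the first of these batches and burn replicate 6 in the second. Without both libraries, the medians over both batches were -0.061 (21 of 80 higher) in burn against sham, 0.083 (71 of 80 higher) in excision against sham and -0.141 (10 of 80 higher) in burn against excision. With the treatment named in the titles in place of the field, the medians over both batches were -0.024 (29 of 80 higher) in burn against sham, -0.028 (23 of 80 higher) in excision against sham and 0 (40 of 80 higher) in burn against excision, and 0 and 1 of all genes were called in the first and the last of these. Without the 3 frontal cortex libraries whose labels disagree, the medians were -0.100 (15 of 80 higher), -0.057 (7 of 80 higher) and -0.039 (23 of 80 higher). The field gives these libraries the treatment that the same library numbers have in batch 2 of the hippocampus. Their titles continue the sample numbers of the treatment named in the title. The burn effect in batch 2 minus batch 1 had a median of 0.395 over the members (0.061 over all genes), with 71 of 80 higher and 0 called (0% of all genes). An unadjusted p under 0.05 was met there by 23 of 80 members and by 4088 of all 21077 genes tested. Ndufv3 at 0.77 (SE 0.24, adjusted p = 0.157) and Cox4i2 at 1.31 (SE 0.44, adjusted p = 0.168) led the members. Without sham replicate 1 and burn replicate 6 the members' median of this difference was 0.099, and Ndufv3 was at 0.49 (adjusted p = 0.439). In batch 1 alone Ndufv3, an accessory subunit of complex I, was called lower in burn than in sham (log2 fold change -0.49, adjusted p = 0.0369). It was the only one of 80 members called there, where 6.5% of all genes were called. That call was lost without sham replicate 1 (-0.34, adjusted p = 0.0698, in batch 1 alone).

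In the piriform cortex 0 of 80 members were called in each of the 3 comparisons (0% of all genes in each). An unadjusted p under 0.05 was met by 5, 1 and 1 of 80 members in the order burn with sham, excision with sham, burn with excision. Of all 21004 genes tested, 896, 1102 and 1658 met it in the same order. Atp5k, the e subunit of the ATP synthase, was at 50.5 to 73.2 CPM in burn (median 57.4), 58.9 to 73.8 in excision (median 64.1) and 58.3 to 93.4 in sham (median 77.4). Sham held the highest library and the ranges overlapped. The log2 fold change in burn against sham was -0.34 (SE 0.13, adjusted p = 0.884), followed by Ndufs6 at -0.29, Ndufa5 at -0.27, Uqcrh at -0.25 and Cox7a2 at -0.21. The members' medians were -0.173 in burn against sham (0.005 over all genes, 9 of 80 higher), -0.042 in excision against sham (24 of 80 higher) and -0.104 in burn against excision (5 of 80 higher). Without sham replicate 1, the library high in hippocampal, oligodendrocyte and blood markers, they were -0.092 (11 of 80 higher) in burn against sham and 0.017 (51 of 80 higher) in excision against sham, and Atp5k was at -0.23 in burn against sham. The part of that tissue difference in the medians was not tested. Atp5a1 was at 610 to 741 CPM in burn (median 618), 613 to 761 in excision (median 709) and 624 to 759 in sham (median 695). The burn median was below both others, inside overlapping ranges.

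**Figure D2:**
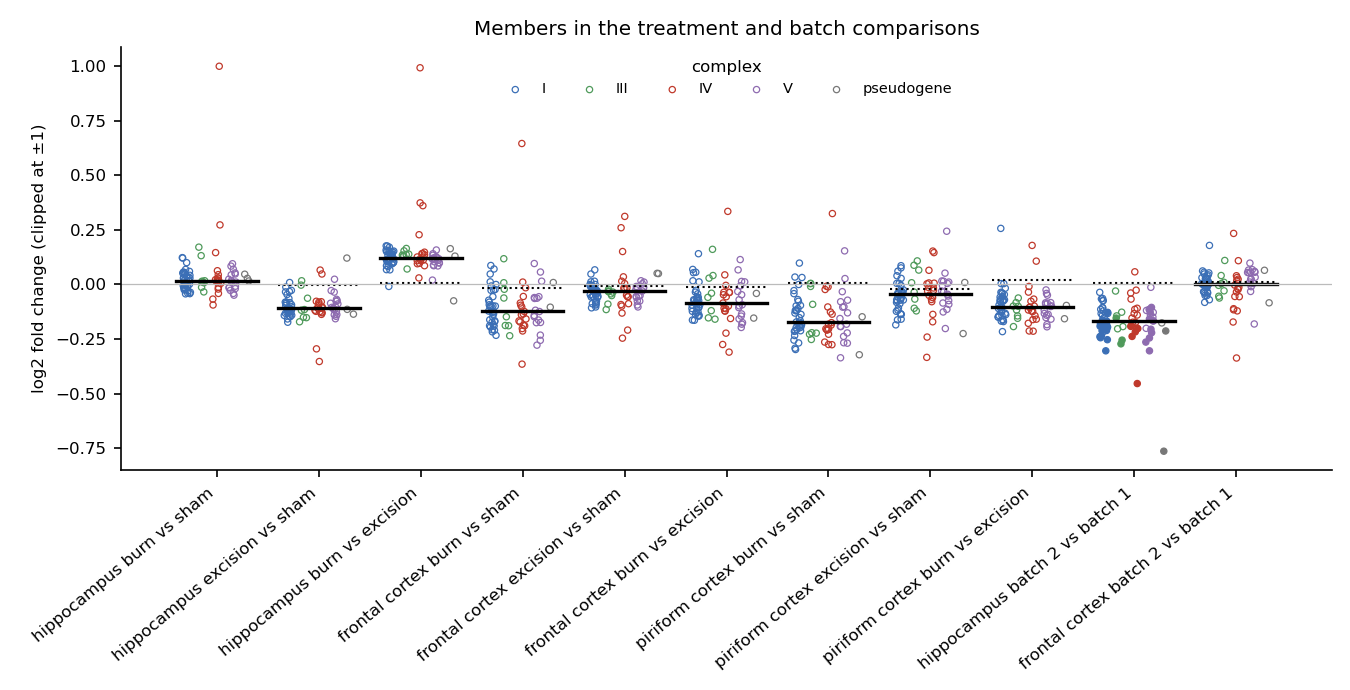
Log2 fold change of each member in the treatment and batch comparisons, coloured by complex, with values past 1 drawn at 1. Filled points are called members, open points are not called, solid bars give the members' median and dotted lines the median of all genes tested. Filled points appear only in the hippocampus batch comparison, where 37 members are called lower.

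Members differed between the batches of the hippocampus. With treatment in the model, 37 of 81 members were called lower in batch 2 than in batch 1 and 0 higher, where 8.54% of all genes were called lower and 7.86% higher. By complex these were 17 of 35 members of complex I, 3 of 8 of III, 5 of 18 of IV and 10 of 17 of V, with 2 of 3 tested pseudogenes. In all, 80 of 81 members had a lower level in batch 2, with a median log2 difference of -0.168 (0.007 over all genes). The exception was Cox6a2 at 0.06. Cox5a, a matrix-side subunit of complex IV (chromosome 9, 57521274 to 57532426), was at 72.0 to 109 CPM in the 14 libraries of batch 1 (median 90.7) and 51.1 to 76.2 CPM in the 15 of batch 2 (median 72.1). The ranges met over a narrow span. The difference was -0.45 (SE 0.06, adjusted p = 5.97e-06). Uqcrfs1 (chromosome 13, 30540308 to 30545362) was at 92.9 to 133 CPM (median 115) and 84.1 to 99.9 CPM (median 94.1), a difference of -0.27 (SE 0.04, adjusted p = 1.51e-05). Ndufb3, an accessory subunit of complex I, was at 53.6 to 83.9 CPM (median 62.4) and 47.1 to 58.3 CPM (median 51.4), a difference of -0.30 (SE 0.06, adjusted p = 0.00032). The batch 2 median of Ndufb3 lay below every batch 1 library, and those of Cox5a and Uqcrfs1 lay close to the lowest batch 1 library.

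Atp5a1 was 0.16 lower on the log2 scale in batch 2 (SE 0.03, adjusted p = 0.00113), at 728 to 844 CPM (median 781) against 763 to 999 CPM (median 873). The other called members of smallest p were Ndufa9 at -0.17, Atp5g3 at -0.20, Ndufb11 at -0.24, Cox7a2l at -0.22, Cox7a2 at -0.24 and Ndufa6 at -0.18. Of the core subunits, Atp5b was called at -0.10 (adjusted p = 0.0368), and Ndufs1 at -0.04, Ndufv1 at -0.13, Uqcrc1 at -0.13 and Cox4i1 at -0.17 were not called. Cox5a, Uqcrfs1, Ndufb3, Atp5a1, Ndufa9, Atp5g3, Ndufb11, Cox7a2, Cox7a2l and Atp5l were called in the main setting and in all 34 other settings that were run. In the same comparison all 13 mitochondrially encoded subunits were called higher in batch 2, with a median of 0.54, led by mt-Atp8 at 1.96 (SE 0.19). Nuclear and mitochondrial genes of the same complexes thus lay on opposite sides between the batches. Cytosolic ribosomal proteins, another set of short abundant transcripts, had 30 of 78 called lower and 0 higher (median -0.18). Mitochondrial ribosomal proteins had 18 of 77 called lower, assembly factors 11 lower and 2 higher of 39, and citrate cycle genes 5 lower of 17. Batch 1 held 6.65 to 34.1 M counts and batch 2 30.7 to 70.7 M, and mitochondrial transcripts took 3.25 to 5.42% and 5.05 to 10.2% of counts. The part of depth and of that share in the difference was not tested.

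In the frontal cortex 0 of 80 members were called between batches (10% of all genes were called). The members' median was 0.004, and 0.018 (49 of 80 higher, 0 called) without sham replicate 1 and burn replicate 6. Ndufb2 at 0.18 (SE 0.07, adjusted p = 0.0861) had the smallest p. Mitochondrially encoded genes had a median of 0.38 with 0 of 13 called, and 0 of 78 cytosolic ribosomal proteins were called. Summed markers of striatum had medians of 1300, 704 and 785 CPM in sham, burn and excision of batch 1 and of 261, 556 and 1260 CPM in those of batch 2. The order of the batches in excision was thus the reverse of that in sham and burn, and single libraries of the region ran from 242 to 2060 CPM. The part of these markers in the members' values was not tested. The difference between the 2 regions in their batch effect was not tested.

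Within groups the members moved together from library to library. Over the 72 members with a mean of at least 10 CPM, the mean log2 CPM ran from 6.30 to 7.22 in the frontal cortex, with the highest value in sham replicate 1. The next highest sham library of that region was at 6.71. Burn replicate 6 was at 6.96, where the other burn libraries of the frontal cortex lay between 6.39 and 6.59. Within groups the SD of this mean was 0.163 in the hippocampus, 0.212 in the frontal cortex and 0.159 in the piriform cortex, which is more than the size of the members' median in each treatment comparison of the hippocampus and frontal cortex but less than that in burn against sham of the piriform cortex (-0.173, or -0.092 without sham replicate 1). That SD is between single libraries, and a difference of group means varies less, so setting them side by side is not a test. The level of cytosolic ribosomal protein genes moved with the members' mean. In a model with that level as a covariate, added after the data were seen, 72 of 81 members had a positive slope past the threshold in the hippocampus (21.7% of all genes), 72 of 80 in the frontal cortex (23.1%) and 64 of 80 in the piriform cortex (13.6%). Only in the frontal cortex were members called with a negative slope, 2 of 80 (24.4% of all genes).

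The members differed in how steeply they followed the members' mean. The slope of log2 CPM on that mean was 1.52 for Atp5e, 1.50 for Atp5k and 1.45 for both Uqcr10 and Atp5o, and -0.11 for Ndufb2, -0.11 for Atp5s and -0.03 for Ndufs1. Ndufs1 and Uqcrc2, which are among the 5 members of smallest p in burn against sham of the hippocampus and in burn against excision of the frontal cortex, were also those with the smallest SD within groups, 0.104 and 0.115 on the log2 scale, against 0.302 for Atp5k and a median of 0.218. The 19 members with a coding length of 300 bases or less had a median slope of 1.26, and the 10 members over 900 bases one of 0.63. Across the members Spearman's rho of slope and coding length was -0.38, and genes are not independent replicates. The coding sequence of Atp5e has 156 bases and that of Ndufs1 2181.

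**Figure D3:**
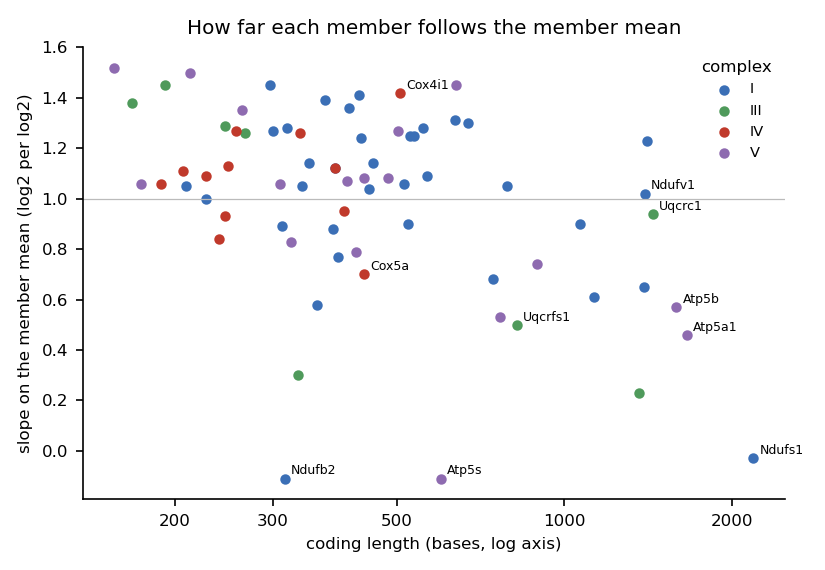
Slope of each of the 72 members on the members' mean, from log2 CPM within groups, against coding length in bases on a log axis, coloured by complex. Atp5e, with 156 coding bases, has a slope of 1.52, and Ndufs1, the longest, one of -0.03.

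With the ribosomal protein level as a covariate, the burn against excision median in the hippocampus was 0.032 (63 of 81 higher) in place of 0.122, and burn against sham was -0.002. In the frontal cortex the burn against sham median was 0.063 (75 of 80 higher) in place of -0.123, and 2 of 80 members were called (5.46% of all genes), Ndufb2 lower (-0.26, adjusted p = 0.0437) and Ndufb6 higher (0.20, adjusted p = 0.0374). In the piriform cortex it was 0.028 in place of -0.173. Between the hippocampus batches 12 of 81 members were called, 11 lower and 1 higher, where 16.9% of all genes were called. The members' median there was -0.039 (22 of 81 higher) in place of -0.168. The covariate therefore turned the members' median in burn against sham in the frontal and piriform cortex and lowered the batch count in the hippocampus.

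The regions were compared in sham libraries, with batch in the model for the hippocampus and frontal cortex. Of 80 members tested, 19 were called higher in the hippocampus and 0 lower, where 20.8% of all genes were called higher and 20.1% lower. The count of members called higher lay near that background. Over the 80 tested members 71 were higher, and the median log2 difference was 0.219 (-0.002 over all genes). Complex I had 9 of 35 called, complex III 1 of 8, complex IV 5 of 18, complex V 3 of 17 and the pseudogenes 1 of 2. Without frontal cortex sham replicate 1, the library with the highest member level, 51 of 80 were called higher (23.7% of all genes), with a median of 0.302. With the libraries of all treatments 56 were called higher (29.3% of all genes) and 1 lower.

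Cox6c2 (chromosome 12, 56373593 to 56373823), the retrocopy of the complex IV gene Cox6c, was at 42.1 to 77.6 CPM in hippocampus sham (median 55.3) and 6.43 to 17.8 CPM in frontal cortex sham (median 8.62). The difference was 2.57 on the log2 scale (SE 0.17, adjusted p = 2.94e-10). Its ranges were far apart. Ndufb2 was at 23.7 to 27.5 CPM (median 26.4) and 13.1 to 17.6 CPM (median 14.9), a difference of 0.72 (SE 0.07, adjusted p = 7e-08), also without overlap. Atp5o, the subunit that joins the stalk of the ATP synthase to its catalytic head, was at 59.2 to 108 CPM (median 78.0) and 27.2 to 79.5 CPM (median 35.8), a difference of 1.08 (SE 0.17, adjusted p = 4.51e-05). Atp5l, subunit g of the synthase, was at 84.0 to 161 CPM (median 110) and 49.4 to 85.1 CPM (median 64.9), a difference of 0.83 (SE 0.12, adjusted p = 2.14e-05). Ndufb9 was at 75.3 to 124 CPM (median 98.8) and 42.9 to 82.8 CPM (median 54.2), a difference of 0.80 (SE 0.12, adjusted p = 1.48e-05). For Atp5o, Atp5l and Ndufb9 the frontal cortex median lay below every hippocampus library, with overlap from the highest frontal cortex libraries. Without frontal cortex sham replicate 1 the differences were 2.72 for Cox6c2, 0.71 for Ndufb2, 1.25 for Atp5o, 0.88 for Atp5l and 0.86 for Ndufb9, each called. Atp5j at 0.32, Ndufa6 at 0.30, Cox6c at 0.44 and Ndufa11 at 0.47 were also called. The core subunits were not called, and lay between -0.05 (Uqcrfs1) and 0.21 (Cox4i1), with Ndufs1 at -0.01 and Atp5b at -0.01.

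Processed pseudogenes as a class were higher in the hippocampus libraries. Of 1832 tested, 76.1% were called higher there than in the frontal cortex, against 14.6% of 15083 protein-coding genes, and their median log2 difference was 1.48. They took 3.19 to 4.33% of counts in the hippocampus, 1.63 to 2.53% in the frontal cortex and 1.48 to 1.87% in the piriform cortex. In piriform against frontal cortex 0.923% were called higher. The 8 genes left out of the members for their -ps symbols also had their highest mean in the hippocampus, as Atp5l-ps1 at 41.8 CPM against 16.3 and 15.7 CPM in the frontal and piriform cortex. Of the 19 called members 8 had a 100-base window shared with another gene, as had 24 of the 61 not called, and the median difference was 0.22 in the 32 members with and in the 48 without such a window. Whether reads of the hippocampus libraries were assigned to copies in another way was not tested.

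**Figure D4:**
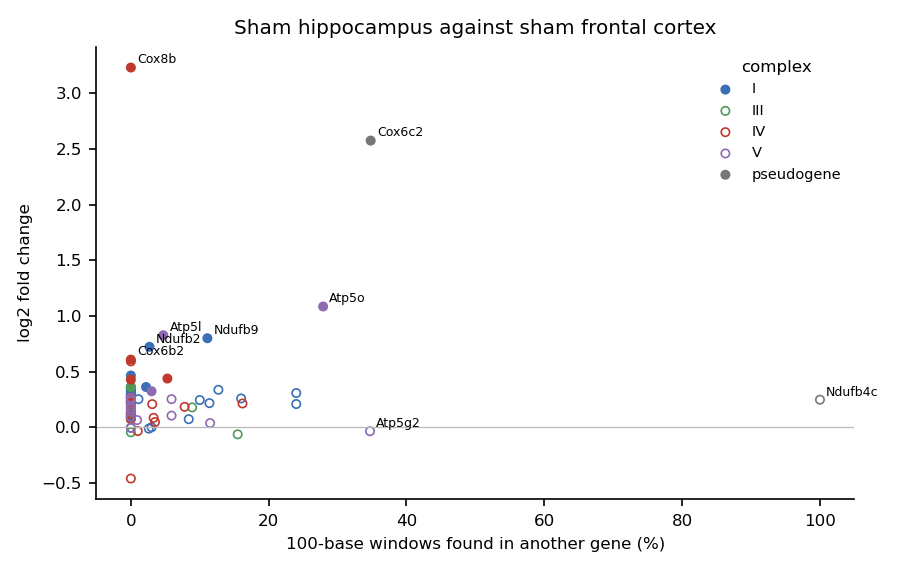
Log2 difference between hippocampus and frontal cortex in sham libraries for each member, against the percent of its 100-base windows shared with another gene. Filled points are called and open points are not. Cox6c2 stands at 34.8% and Atp5o at 27.9% shared, while Cox8b, at a difference of 3.23, has no shared window.

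Piriform cortex against frontal cortex in sham libraries gave 1 member higher and 1 lower of 83 tested (6.21% of all genes were called higher and 5.65% lower). Cox6a2, the isoform of complex IV known from heart and skeletal muscle and from some interneurons (chromosome 7, 128205435 to 128206387), was at 6.53 to 9.07 CPM in the piriform cortex (median 7.95) and 3.21 to 6.62 CPM in the frontal cortex (median 4.39). The difference was 0.81 (SE 0.15, adjusted p = 0.00128). Of 8 markers of parvalbumin interneurons, Syt2 (1.58, SE 0.25, adjusted p = 0.000207) and Pvalb (1.26, SE 0.21, adjusted p = 0.00037) were also called higher in the piriform cortex and Adamts15 lower (-0.48, SE 0.15, adjusted p = 0.0365), with a median of 0.154. The sum of the 8 was 189 to 348 CPM in piriform sham and 184 to 286 and 157 to 173 CPM in frontal cortex sham of batches 1 and 2. The part of these cells in the difference of Cox6a2 was not tested. Uqcrc2 was at 97.5 to 112 CPM (median 101) and 116 to 153 CPM (median 127), a difference of -0.32 (SE 0.07, adjusted p = 0.00509), with no overlap. Uqcrfs1 was next at -0.28 (adjusted p = 0.0658). Without piriform cortex sham replicate 1 the same 2 members were called, Cox6a2 at 0.81 (adjusted p = 0.00271) and Uqcrc2 at -0.30 (adjusted p = 0.0169). Without frontal cortex sham replicate 1 Cox6c (0.33, adjusted p = 0.04) and Cox6c2 (0.41, adjusted p = 0.0437) were called higher beside them. All 5 piriform sham libraries are in batch 3, so region and batch cannot be told apart. The burn effect in the hippocampus minus that in the frontal cortex was called for 0 of 83 members (0% of all genes), with a median of 0.106, or 0.075 (68 of 83 higher) without frontal cortex sham replicate 1 and burn replicate 6. Cox6b2 at 0.60 (SE 0.27, adjusted p = 0.518) had the smallest p.

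Isoforms of the same subunit differed by orders of magnitude per kb. Mean levels are given as CPM per kb in the hippocampus, frontal cortex and piriform cortex, in that order. Cox4i1 was at 287, 247 and 244 and Cox4i2, known for oxygen sensing and from pericytes, at 1.34, 2.03 and 1.9. Cox6a1 was at 417, 428 and 491 and Cox6a2 at 8.92, 7.47 and 11.2. Cox6b1 was at 257, 227 and 214 and Cox6b2, known from testis, at 2.61, 1.48 and 1.4. In each of these families the common isoform prevailed in every region. Cox7a2 was at 129, 115 and 109, the supercomplex factor Cox7a2l at 106, 92.8 and 92.7 and the muscle isoform Cox7a1 at 2.47, 1.8 and 1.86. Cox7b was at 114, 100 and 95.9 and Cox7b2 at 0.41, 0.489 and 0.396. Cox8a was at 583, 535 and 595 and Cox8b, the isoform of muscle and brown fat, at 3.76, 0.249 and 0.33. Cox8c had counts in 3 of 71 libraries. Ndufa4 was at 151, 127 and 126 and Ndufa4l2, known from hypoxic and mural cells, at 1.5, 1.5 and 1.35. The ATP synthase c-ring genes, which encode the same mature protein, were closer together, with Atp5g3 at 99.7, 89.1 and 79.0, Atp5g2 at 51.8, 52.0 and 48.7 and Atp5g1 at 34.9, 30.5 and 27.6. Merged exons span 1675 bases in Atp5g2 and 4912 in Atp5g1, whose mean count was the higher of these 2 (7790.0 against 4391.1).

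Cell type markers were compared with Cox4i2 and Ndufa4l2 (pericytes) and Cox6a2 (parvalbumin interneurons) across libraries of each region and batch, 15 relations in all. None passed after Benjamini-Hochberg adjustment with 100000 permutations, two-sided. The largest Pearson r was 0.58 for Cox6a2 in batch 2 of the hippocampus (permutation p = 0.0233, adjusted p = 0.267), with a Spearman rho of 0.22 (permutation p = 0.436, adjusted p = 0.654). This r was 0.25 without the 2 libraries farthest from the median. For Cox6a2 in batch 1 of the frontal cortex r was 0.49 (permutation p = 0.0625, adjusted p = 0.267), and 0.61 without 2 libraries. In its other regions and batches r was lower without 2 libraries. Over all regions and batches r ran from 0.15 to 0.58 for Cox6a2, 0.04 to 0.45 for Ndufa4l2 and -0.09 to 0.46 for Cox4i2.

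Cox8b, called higher in hippocampus than in frontal cortex (log2 difference 3.23, SE 0.60, adjusted p = 0.000194), was at 0.235 to 3.53 CPM (median 0.521) and 0.0283 to 0.234 CPM (median 0.12) in sham. Levels in the hippocampus varied with markers of the choroid plexus, the secretory tissue of the ventricles. In 13 hippocampus libraries the mean log2 CPM of 10 such markers was 3.62 to 6.28 and Cox8b was at 0.891 to 6.21 CPM (median 2.19), and in the other 16 the markers were at -1.54 to 1.74 and Cox8b at 0.182 to 0.923 CPM (median 0.411). The marker Ttr ran from 9.08 to 6300 CPM in the hippocampus. The 6 hippocampus sham libraries of low marker level had Cox8b at 0.235 to 0.923 CPM, and the highest frontal cortex sham library was at 0.234. The marker level was not matched in this comparison. It was 0.06 to 1.74 in those hippocampus libraries and -1.17 to 0.02 in frontal cortex sham. The 13 libraries of high marker level were 6 burn, 4 excision and 3 sham, and Cox8b differed by 1.06 on the log2 scale between burn and sham without being called. The relation was seen in these data and its part in the regional difference was not tested.

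**Figure D5:**
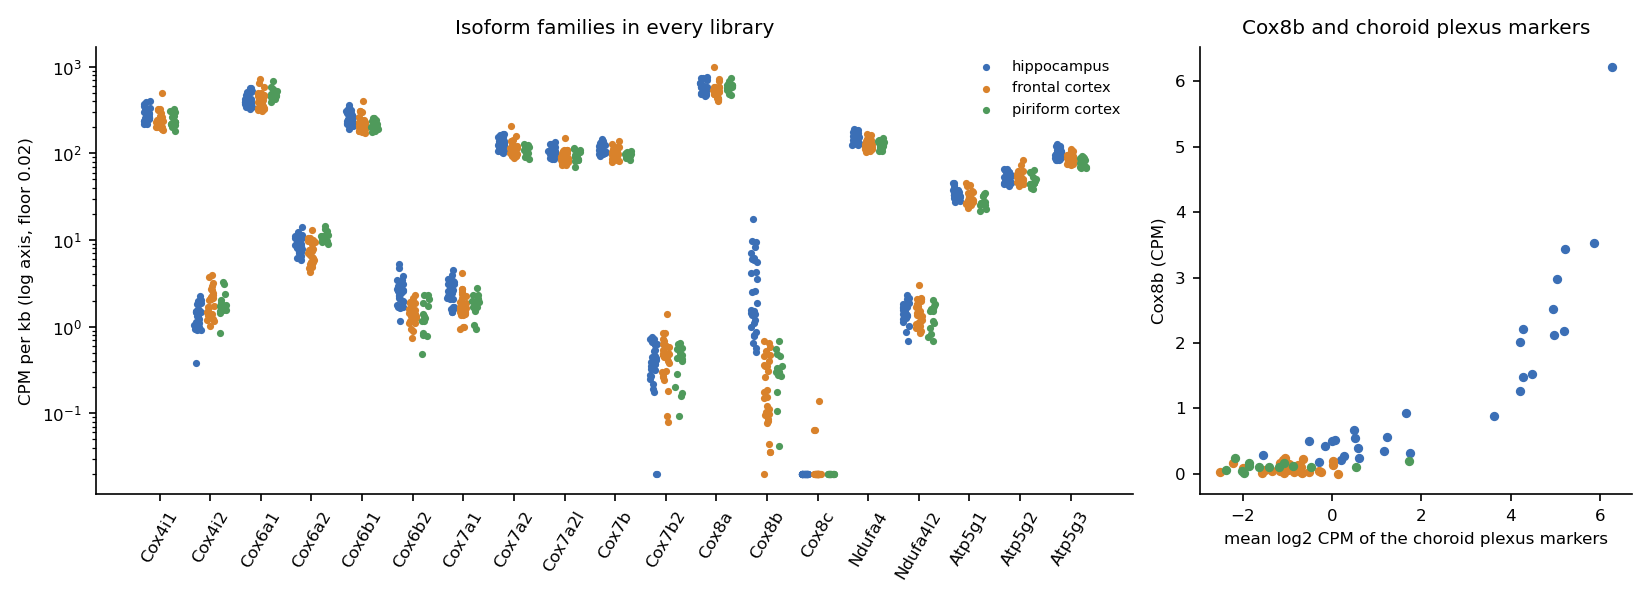
Left, CPM per kb of the isoform families in every library, coloured by region, on a log axis with values under 0.02 drawn at 0.02. Right, Cox8b in CPM against the mean log2 CPM of the choroid plexus markers in each library. The 13 hippocampus libraries at 3.62 or more on the marker axis hold 0.891 to 6.21 CPM of Cox8b.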

How the data were processed

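RNA of 71 libraries from 3 brain regions was measured by sequencing, with single-end reads of 100 bp. The authors deposited 1 table of whole-number counts, which were used unchanged. GRCm38, STAR, fastp, FastQC 0.11.3 and DESeq2 1.24.0 stand in the submitters' processing notes. The counter, its annotation, its strand setting and how it treated reads with several places: not given in the sources used here. Reads from near-identical copies and overlapping genes may thus be split or shared. Symbols, lengths and positions came from GENCODE M21 for 52083 of 55416 identifiers. Members and gene lists were chosen with earlier results of these data known. All 270 library pairs within groups differed by more than counting error (0 identical, lowest chi-square per degree of freedom 4.36).

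Each region was fitted with edgeR 4.0.16 under R 4.3.3 (TMM normalisation, filterByExpr, quasi-likelihood test, an additive batch term for hippocampus and frontal cortex), with Benjamini-Hochberg adjustment over all genes tested. CPM used a joint TMM scaling of all libraries, and log2 CPM a prior count of 0.5. Interactions and regional differences were tested as contrasts. A fold change is burn over sham, excision over sham, burn over excision, batch 2 over batch 1 or the named region over the frontal cortex. Named genes are, per comparison, at most 10 called members by smallest p (or the 5 of smallest p), 8 core subunits, isoform families, the 3 highest and lowest members of each complex, and at most 3 called genes of each other list. Others named (Ndufv3, Ndufb6) were chosen after their values were seen. Alternatives were DESeq2 1.42.0 and its size factors, no count filter, a replicate block, each batch alone, titles in place of the treatment field, libraries left out, and a ribosomal protein covariate. The fits were tested on simulated data.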

Additional observations from a re-analysis of the deposited data

Results flagged for a closer look

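Values of single libraries are listed here where the gap to the nearest library of the group was large for the group's range (Dixon's 95% limits, 19 measures in 171 groups of 4 to 10 libraries, 25 values). Chance alone gives about 1 in 20 groups. All values are log2 CPM.

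Most came from 2 frontal cortex libraries. Burn replicate 6 had a member mean of 6.96 (others 6.39 to 6.59), with complex I at 6.48, complex III at 7.17, complex IV at 7.76, complex V at 7.26 and Uqcrc1 at 8.47. Sham replicate 1 had a member mean of 7.22 (others 6.3 to 6.71), with complex I at 6.75, complex IV at 8.11 and complex V at 7.5. Among its core subunits Ndufv1 was at 8.1, Uqcrfs1 at 7.15, Cox4i1 at 9.59, Atp5a1 at 10.04 and Atp5b at 10.64, and mitochondrial transcripts took 1.98% of its counts, the lowest share of all libraries. Burn replicate 7 of the frontal cortex, whose title names sham, had Cox5a at 5.52 (others 6.0 to 6.51) and Atp5a1 at 9.97 (others 9.49 to 9.66), on opposite sides of its group.

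In the hippocampus, excision replicate 2 had Uqcrfs1 at 6.95 and Atp5b at 10.42, both the highest of the group, and excision replicate 3, one of the libraries under 10 M counts, had the lowest Ndufs1 at 6.39 (others 6.73 to 6.89). Among isoforms of low level, Cox4i2 was at -1.7 in burn replicate 1, Cox7a1 at 1.28 in excision replicate 5 and Ndufa4l2 at -0.4 in excision replicate 10. In the piriform cortex Cox7a1 was at -0.95 in burn replicate 3 (others 0.03 to 0.18) and Ndufa4l2 at 0.1 in burn replicate 1 (others 0.75 to 1.01).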

How the results depend on the processing

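The members called between hippocampus batches (37) numbered 18 without the count filter, 20 without libraries under 10 M counts, 12 with the ribosomal protein covariate and 20 to 53 with each library left out (20 without sham replicate 3, 22 without excision replicate 2, 24 without burn replicate 6, 24 without burn replicate 8). Of all genes, 16.4% were called in the main setting, and 5.96%, 11.3% and 16.9% in the first 3 settings named here. The cause of these changes in count was not tested. Members called in hippocampus against frontal cortex sham (19) numbered 57 with all treatments, 9 in batch 1 alone, 10 in batch 2 alone, and 11 to 51 with each library left out (51 without frontal cortex sham replicate 1, 11 without sham replicate 2 or 6, 12 without sham replicate 4 or hippocampus sham replicate 3). Of all genes, 61.6% were called with all treatments, 26.1% in batch 1 alone and 31.1% in batch 2 alone, and 9063 of 19470 genes without frontal cortex sham replicate 1. Piriform against frontal cortex gave 2 to 4 with each library left out (4 without frontal cortex sham replicate 1, where 3072 of all 22171 genes were called). Counts of 0 became 1 in hippocampus burn against excision with the DESeq2 Wald test and in batch 1 alone, in hippocampus burn against sham in batch 1 alone and in frontal cortex burn against sham in batch 1 alone, 2 in the last with the covariate, and 3 between frontal cortex batches with the covariate. The shares of all genes called in these settings were 1.55%, 1.05%, 7.09%, 6.5%, 5.46% and 19.5%, in that order. With each library left out the counts of 0 ran from 0 to 1 for frontal cortex batches (without sham replicate 1, excision replicate 2 or excision replicate 4) and 0 to 1 for the hippocampus burn effect between batches. Without frontal cortex sham replicate 1, 2651 of 21294 genes were called between frontal cortex batches. For the other counts with a single library left out, the share of all genes is not given here. Medians moved by more than the spread between libraries in frontal cortex batch 2 alone (burn against sham 0.140, excision against sham 0.197), in piriform burn against sham with the covariate (0.028) and in the frontal cortex burn effect between batches without both high libraries (0.099). The remaining settings were taken as kept, for counts in 96 cases and medians in 104. Kept does not mean equal. Between hippocampus batches 40 members were called with DESeq2 size factors and 45 with its Wald test (16.7% and 19.1% of all genes). Kept medians could also change sign, as in frontal cortex burn against sham with the covariate (0.063 in place of -0.123).

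With the replicate number as a block, 0 members were called in the 9 treatment comparisons, where at most 0.863% of all genes were called. In hippocampus against frontal cortex sham 20 of 80 members were called, where 35.3% of all genes were called. Deviations of libraries with the same title number correlated between -0.49 and 0.51 in the hippocampus (28 pairs), -0.55 and 0.64 in the frontal cortex (24) and -0.24 and 0.55 in the piriform cortex (11). The medians were 0.07, -0.08 and -0.03, against -0.01, 0.03 and -0.02 for libraries of different numbers. Own numbers correlated best in 6 of 29, 10 of 25 and 6 of 13 libraries. No chance rate was computed for these shares, so whether title numbers pair libraries was not tested. Depth limits the members of lowest level, Cox8c, Cox7b2, Ndufa11b and Ndufs6b, which had at most 43 counts in any library.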
